A study of Gallus gallus with 12 samples.

Results

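The HOX genes of the feather follicle are described here as measured in feathers plucked from the nape of chickens, not in whole nape skin. Members were all rows of the deposited expression table whose gene symbol is HOX followed by the cluster letter A, B, C or D and a paralogue number, which gave 35 of 24353 rows. They comprised 10 HOXA, 9 HOXB, 8 HOXC and 8 HOXD genes. HOXA13, HOXB1, HOXC5 and HOXD1 were not analysed here. The birds were F3 chickens of the cross Huiyang Bearded X White Leghorn, and follicles were plucked from the nape and cut 2 mm above the base, so that epithelium and pulp were sampled together. RNA was sequenced from yellow follicles at 11 weeks, white follicles at 11 weeks, yellow follicles at 7 weeks and white follicles at 7 weeks, with 3 libraries in each group and 12 libraries in all. Per the study's genotyping, all birds were hens, CC at the recessive white locus and s/W at Silver, and all carried the I allele of Dominant white. The genotypes II and Ii both occurred among yellow birds at both ages and among white birds at 7 weeks, whereas the white birds of 11 weeks were all II. The libraries are labelled Y1, Y3 and Y4 in yellow at both ages, W1, W3 and W4 in white at 11 weeks and W1, W2 and W3 in white at 7 weeks. The study's text does not settle whether a label shared by both ages is the same bird.

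HOX genes encode homeodomain transcription factors that stand in rows on the chromosome, and their paralogue number gives their place in that row. In vertebrate embryos low numbers are expressed from the head and neck backwards and high numbers only in the rear trunk, tail and distal limb, so that the set of active HOX genes marks a position along the body. Skin keeps such a positional code after development, mainly in dermal fibroblasts, and dermis of each region instructs the type of feather or hair that the epidermis above it makes.

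Values are FPKM, fragments scaled by gene length and by the mapped fragments of the library, as the authors deposited them. How many reads stand behind a value is unknown, and an exact 0 is described as listed at 0. Markers of both tissue layers were present. The 11 dermal pulp fibroblast markers summed to 1616 to 3655 FPKM at 11 weeks and 1842 to 2968 at 7 weeks, all 11 had a mean of at least 1, and none was listed at 0 throughout. The 10 keratinocyte markers summed to 3099 to 4437 FPKM at 11 weeks and 4931 to 6098 at 7 weeks, without overlap between the ages. Most of that sum was SFN, with 2387 ± 312.9 FPKM at 11 weeks and 3897 ± 317.7 FPKM at 7 weeks (SD, n = 6 each). The list did not move one way. TP63, DSP and DSG2 were called higher at 11 weeks and KRT14 lower, and the median log2 difference of the 10 was 0.10, beside 0.44 over all genes. In these bulk samples fewer cells of a type and less RNA per cell cannot be told apart.

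Follicles of the nape carried an anterior HOX profile. HOXB4 was the most abundant member in 12 of 12 libraries, with a mean of 77.0 ± 19.6 FPKM (SD, n = 12), and it alone held 24.2% ± 3.69 of the FPKM summed over all members. That HOX sum was 315.2 ± 49.6 FPKM (SD, n = 12), or 0.0441% ± 0.00991 of the FPKM of all rows, and ranged from 249.6 to 406.9. Genes with paralogue numbers 1 to 5 held 79.8% ± 2.88 of the HOX sum, with a range of 75.8% to 83.8%. Numbers 6 to 8 held 16.4% ± 2.64 and numbers 9 to 13 held 3.85% ± 0.664.

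Of the 35 members, 12 had a mean of at least 10 FPKM over the 12 libraries, another 12 lay from 1 to below 10, 3 from 0.1 to below 1 and 4 above 0 but below 0.1. The remaining 4, HOXB13, HOXC12, HOXD12 and HOXD13, were listed at 0 in every library. The members above 0 in every library numbered 24. The map of mean FPKM by cluster and paralogue number shows levels of at least 1 FPKM up to number 9 in HOXA and HOXD, 8 in HOXB and 10 in HOXC.

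**Figure D1:**
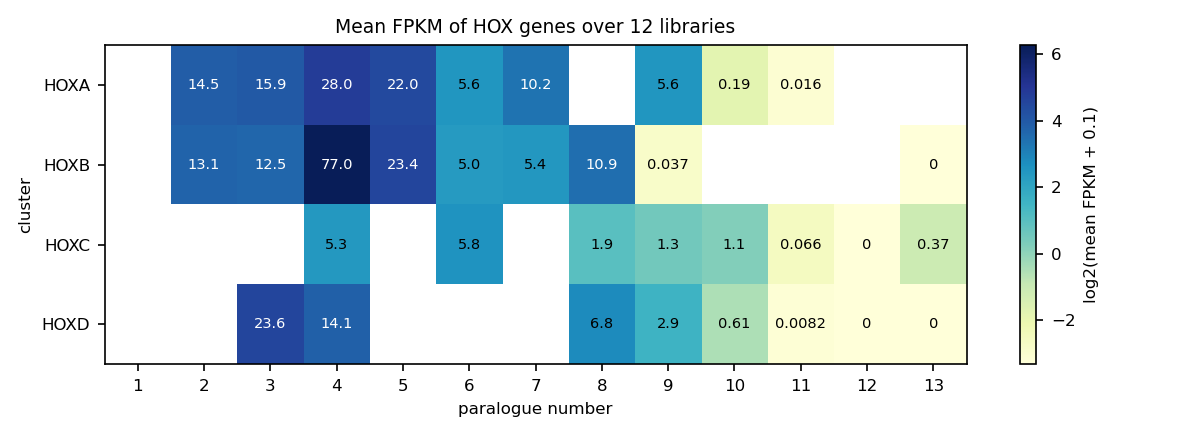
Mean FPKM over 12 libraries of HOX genes, with the clusters in rows and the paralogue numbers in columns; the colour is log2(mean FPKM + 0.1), the printed number is the mean, and a blank cell has no value shown. HOXB4 stands at 77.0 FPKM, and HOXB13, HOXC12, HOXD12 and HOXD13 stand at 0.

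HOXB was the cluster with the largest share, 46.3% ± 6.15 of the HOX sum (SD, n = 12), followed by HOXA with 33.7% ± 5.75. The HOXB share was above the HOXA share in 9 of 12 libraries, and the ranges of both overlapped, from 33.1% to 53.2% for HOXB and from 26.0% to 43.0% for HOXA. HOXD held 15.0% ± 3.67. HOXC held 4.97% ± 0.857 and was the lowest cluster in 12 of 12 libraries.

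The HOXA cluster lies on chromosome 2 of GRCg6a, the build of the files. HOXA4, a gene of the cervical level, was its highest member in 7 of 12 libraries, with a mean of 28.0 FPKM and a range of 18.4 to 37.8. HOXA5, which shapes the lower cervical vertebrae in mice, followed with 22.0 FPKM (16.2 to 29.7). The lead of HOXA4 depended on age. At 7 weeks HOXA4 averaged 32.8 ± 3.72 FPKM and HOXA5 19.0 ± 3.46 FPKM (SD, n = 6). At 11 weeks the means were close, 23.2 ± 3.57 FPKM for HOXA4 and 25.1 ± 3.49 FPKM for HOXA5. HOXA3, a gene of the pharyngeal arches in mice, had 15.9 FPKM (10.5 to 25.1), and HOXA2, which sets second arch identity, had 14.5 FPKM (11.1 to 22.8). Beyond the cervical members, HOXA6 averaged 5.61 FPKM (3.47 to 7.95), HOXA7 10.2 FPKM (7.61 to 13.6) and HOXA9, a trunk gene also known from blood progenitors, 5.59 FPKM (1.45 to 8.73). HOXA10 averaged 0.189 FPKM and HOXA11 0.0163 FPKM, with 1 and 7 libraries at 0. The gene model of HOXA3, 39620 bases long, overlaps those of HOXA4, HOXA5 and HOXA6. Exons were not analysed here, so whether reads of these 4 genes are shared was not tested, and their levels are uncertain.

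The HOXB cluster lies on chromosome 27 from 6151928 to 6280220. After HOXB4, which is known for the expansion of blood stem cells, the highest member was HOXB5 with 23.4 FPKM (7.96 to 31.8). HOXB2 and HOXB3, both genes of hindbrain segments, averaged 13.1 FPKM (9.19 to 18.3) and 12.5 FPKM (5.58 to 23.9). HOXB6 and HOXB7 were lower, at 5.04 FPKM (1.86 to 9.18) and 5.42 FPKM (3.47 to 7.57). HOXB8 broke the decline, with 10.9 FPKM and a range of 0.786 to 23.4, and it was above both HOXB6 and HOXB7 in 9 of 12 libraries. The row ended sharply after it. HOXB9 averaged 0.0367 FPKM with 8 libraries at 0, and HOXB13 was listed at 0 throughout.

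HOXD, on chromosome 7 from 16262308 to 16327333, had its highest mean over the 12 libraries at its first member analysed here. HOXD3 averaged 23.6 FPKM (8.24 to 44.7) and was the highest HOXD gene in 8 of 12 libraries, and HOXD4 averaged 14.1 FPKM (9.74 to 21.0). Their order depended on age. At 11 weeks HOXD3 averaged 34.4 ± 9.39 FPKM and HOXD4 14.3 ± 3.89 FPKM (SD, n = 6). At 7 weeks the means were close, 12.8 ± 4.20 FPKM for HOXD3 and 13.8 ± 1.68 FPKM for HOXD4. HOXD8 had 6.85 FPKM (3.96 to 12.4) and HOXD9 2.88 FPKM (1.95 to 4.46). HOXD10, a limb and lumbar gene, had 0.608 FPKM (0.143 to 1.37) and HOXD11 0.00818 FPKM with 10 libraries at 0. The genes of the rear end and digits, HOXD12 and HOXD13, were listed at 0 in every library.

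HOXC, on chromosome 33 from 7539364 to 7663344, was low and fell further beyond HOXC6. HOXC6, a gene of the boundary between neck and thorax, had the highest mean of the members, 5.80 FPKM (3.31 to 9.26), and HOXC4 had 5.32 FPKM (3.32 to 6.90). Either of them led the members of the cluster in 10 of 12 libraries. An unnamed row between HOXC6 and HOXC4, described below, averaged more, 9.675 FPKM. It is not a member by symbol, so the HOX sum and the shares leave it out. HOXC8 averaged 1.90 FPKM (0.0818 to 7.85), HOXC9 1.32 FPKM (0.0618 to 2.77) and HOXC10 1.07 FPKM (0 to 4.07). HOXC11 averaged 0.0661 FPKM with 8 libraries at 0. HOXC13, at the far end of the row, did not follow the others. It averaged 0.371 FPKM (0 to 1.01) and was above both HOXC11 and HOXC12 in 11 of 12 libraries. In mammals HOXC13 controls hair keratin genes within the hair shaft, independently of body position.

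Read by paralogue number, group 4 (HOXA4, HOXB4, HOXC4 and HOXD4) held 39.6% ± 4.13 of the HOX sum (SD, n = 12) and was the largest group in 12 of 12 libraries. Group 3 held 16.2% ± 5.65, group 5 held 14.4% ± 1.41 and group 2 held 8.98% ± 2.06. Groups 6, 7 and 8 held 5.20% ± 1.01, 5.0% ± 0.753 and 6.15% ± 1.67, levels that overlapped. Group 9 held 3.14% ± 0.994 and group 10 held 0.561% ± 0.483. Groups 11 and 13 held 0.0280% ± 0.0279 and 0.118% ± 0.0814.

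The order of the members was similar in all follicles, while their levels were less so. Over the 66 pairs of libraries, the Spearman correlation across the 35 members ranged from 0.886 to 0.987 with a median of 0.946. This is a description across genes, which are not independent replicates, and the wide span of levels within the family enters it, as do the members listed at 0. Over the 24 members with a mean of at least 1 FPKM, Pearson's correlation of log2(FPKM + 0.1) ranged from 0.629 to 0.990 with a median of 0.85. The root mean square difference between a pair of libraries over these members had a median of 1.10 log2 units and a range of 0.28 to 1.70. The median Spearman correlation was 0.969 for the 12 pairs of one colour and age, 0.946 for the 18 pairs of one age and different colours, 0.939 for the 13 pairs of one colour, different ages and different labels, and 0.912 for the 18 pairs that differed in both colour and age. Single members nevertheless varied between libraries of one group. Their pooled SD within groups on the log2(FPKM + 0.1) scale had a median of 0.37 over the 24 members with a mean of at least 1 FPKM, and ranged from 0.20 for HOXA4 to 1.44 for HOXB8. The same median over the 11242 rows of at least 1 FPKM was 0.21. The largest SDs within groups after that of HOXB8 were those of HOXC10 with 1.22, HOXC8 with 1.21, HOXB6 with 0.77 and HOXC9 with 0.73.

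HOXB8 had the largest spread within groups of the members of at least 1 FPKM. Over all 12 libraries it spanned 4.73 units on the log2(FPKM + 0.1) scale, less than HOXC8 with 5.45 and HOXC10 with 5.38. It had 0.982, 10.8 and 13.4 FPKM in yellow follicles Y1, Y3 and Y4 at 11 weeks, against 10.9, 23.4 and 21.6 FPKM in white follicles W1, W3 and W4. At 7 weeks it had 0.786, 5.75 and 10.5 FPKM in yellow follicles Y1, Y3 and Y4, against 6.38, 13.3 and 13.1 FPKM in white follicles W1, W2 and W3. The 2 libraries labelled Y1 were the lowest at both ages, and the other 10 libraries ranged from 5.75 to 23.4 FPKM with a median of 12. HOXB8 is the gene whose ectopic expression in facial skin accompanies the Muffs and beard trait of chickens, which bearded breeds such as Huiyang Bearded show. The beard status of these birds is not given in the sources used here, and its part in these values was not tested. The colour difference averaged over both ages was -1.59 on the log2(FPKM + 0.1) scale (standard error 0.71, limma's adjusted p = 0.284). Without both Y1 libraries, a choice made after seeing the data, it was -0.48 (adjusted p = 0.443).

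Libraries of one colour that share a number at 11 and 7 weeks had positively correlated HOX deviations, although the shared number was not always the best match. Each library's deviation from its group mean was taken on the log2 scale for the 24 members of at least 1 FPKM, and correlated across these members. The correlation was 0.778 for Y1, 0.291 for Y3, 0.428 for Y4, 0.328 for W1 and 0.627 for W3, with a median of 0.428 over the 5 shared labels. HOXB8 had the largest deviations in the Y1 libraries, -2.33 at 11 weeks and -2.10 at 7 weeks, and weighs heavily on the Y1 value. Over the 13 pairs of one colour with different labels it ranged from -0.808 to 0.704 with a median of -0.314. Deviations from a group mean cancel out within the group, so positive same-label pairs push the other pairs towards negative values. The gap between the 2 medians is therefore not independent evidence that labels match. Starting from the 11-week library, the one of the same label was the best match for 3 of the 5 labels. The exceptions were Y3, which was closer to Y4 of 7 weeks (0.704), and Y4, which was closer to Y3 of 7 weeks (0.450). Across the 11242 rows of at least 1 FPKM, the 5 same-label correlations were between 0.0964 for Y3 and 0.267 for W3. In the W1 libraries, 17 of the 24 members lay below their group mean at both ages and 4 lay above it at both ages. HOXB6 shows this, with 2.09 FPKM in W1 at 11 weeks and 1.86 FPKM in W1 at 7 weeks, the lowest values of that gene, against 2.14 to 9.18 FPKM in the other 10 libraries. In the Y1 libraries 8 members lay below and 8 above at both ages. The sign of the deviation was the same at both ages for 21 of 24 members in W1 and 16 in Y1. For W3, Y3 and Y4 it was the same for 17, 16 and 19 members. Over the 11242 rows the counts were 5890 (W1), 6019 (Y1), 6592 (W3), 5638 (Y3) and 6253 (Y4).

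**Figure D2:**
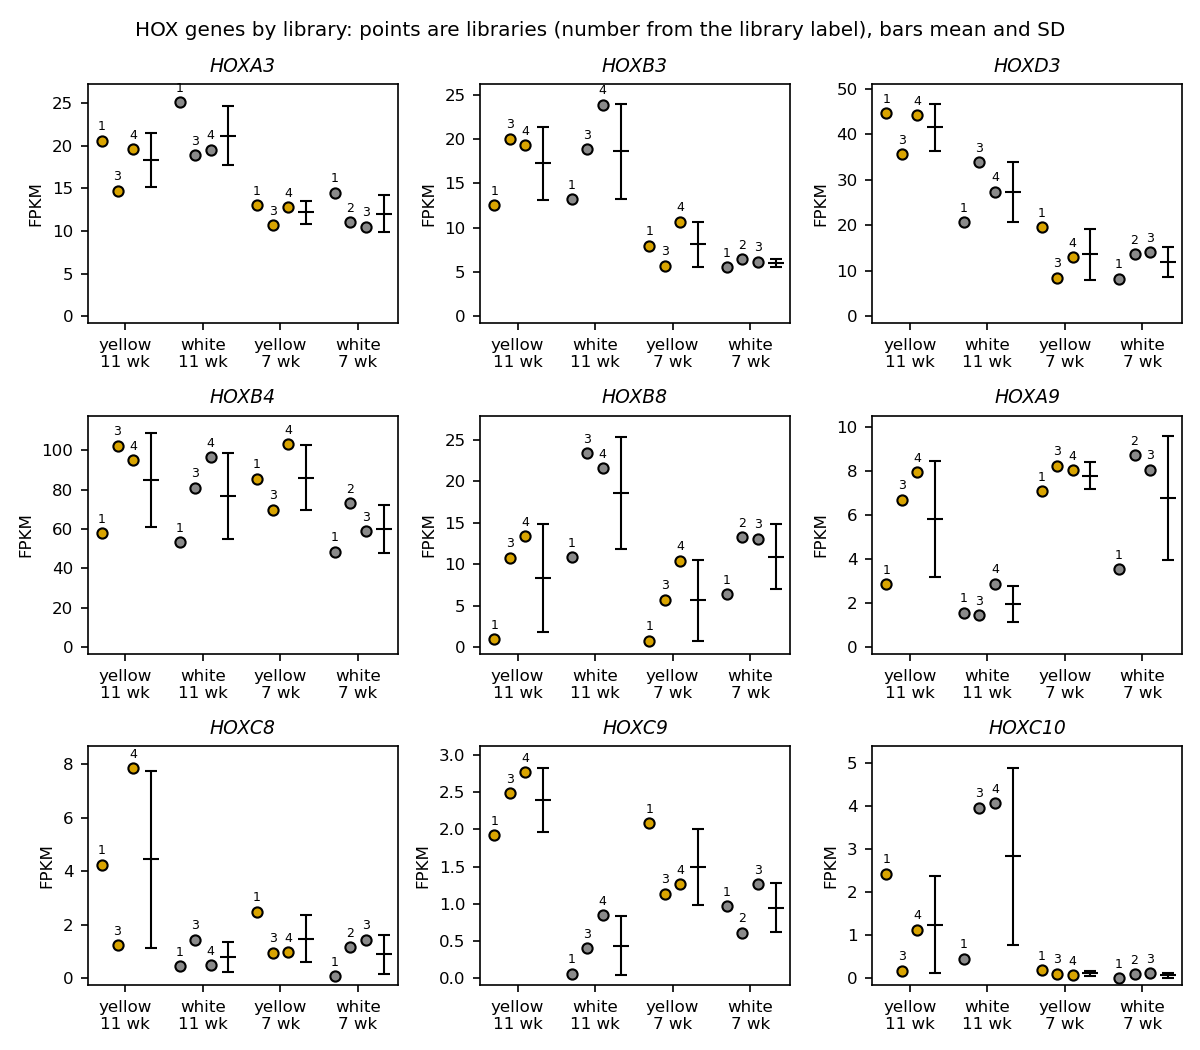
FPKM of 9 HOX genes in yellow and white follicles at 11 and 7 weeks; each point is a library with the number from its label, and the bar beside it is the mean and SD of the 3 libraries. HOXB8 is at 0.982 and 0.786 FPKM in the Y1 libraries, HOXA3, HOXB3 and HOXD3 lie higher in all libraries of 11 weeks, and HOXC10 is above 0.187 FPKM only at 11 weeks.

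The comparison of yellow with white follicles asked whether the code differs with plumage colour within an age. A gene was called where limma's Benjamini-Hochberg adjusted p was at most 0.05 and the log2 fold change was 1 or more in size, among all genes that averaged 0.1 FPKM or more. At 11 weeks 0 of the 28 HOX genes tested were called, as were 0 of 14806 genes overall (percent called 0). At 7 weeks 0 of 26 HOX genes were called, against 4 of 13895 genes overall (0.0288%). Averaged over both ages, 0 of 27 HOX genes were called, against 30 of 14553 genes overall (0.206%). The smallest adjusted p of a HOX gene was 0.569 at 11 weeks, 0.296 at 7 weeks and 0.0974 for both ages averaged. The median log2 fold change at 11 weeks was 0.14 over the HOX genes and 0.03 over all genes tested. At 7 weeks these medians were 0.16 and 0.10, and for the average 0.15 and 0.07. Groups of 3 give wide intervals, so a missing call does not show that the colours were alike. The 7 melanocyte markers, which are the pigment genes of the follicle, summed to 116.4 to 174.2 FPKM in yellow against 310.5 to 609.9 FPKM in white follicles at 11 weeks, and to 190.8 to 359.3 against 691.4 to 1668 FPKM at 7 weeks. All 7 were above 0 in some library, 3 were called lower in yellow in the average, and their part in the HOX values was not tested.

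Without adjustment, a p under 0.05 was found at 11 weeks for 7 of 28 HOX genes, beside 7.23% of all genes, and at 7 weeks for 4 of 26, beside 15.0% of all genes. In the average over both ages it was found for 7 of 27, beside 17.3%. None passed the adjustment over all genes. The 7 genes of 11 weeks were HOXA9, HOXC8, HOXC9, HOXC11, HOXD3, HOXD4 and HOXD8, all with positive differences except HOXC11. Of the 28 genes 11 carry a number of 8 or above, and 5 of these were among the 7. The other 6 ran from -1.71 for HOXB8 to 0.29 for HOXD9, so that 6 of the 11 differences were positive and 5 negative. Those of 7 weeks were HOXA5, HOXB4, HOXB5 and HOXB7, so that no gene was in both sets.

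HOXC9, a thoracic gene, had the lowest adjusted p of the HOX genes at 11 weeks and in the average over both ages, but not at 7 weeks. It had 1.92, 2.49 and 2.77 FPKM in yellow follicles Y1, Y3 and Y4 at 11 weeks, against 0.0618, 0.408 and 0.851 FPKM in white follicles W1, W3 and W4. At 7 weeks it had 2.08, 1.14 and 1.26 FPKM in yellow follicles, against 0.967, 0.614 and 1.26 FPKM in white follicles W1, W2 and W3. The colours did not overlap at 11 weeks and overlapped at 7 weeks. Its log2 fold change from limma was 2.53 ± 0.63 (SE) at 11 weeks with an adjusted p of 0.569, 0.61 ± 0.33 at 7 weeks with an adjusted p of 0.385, and 1.57 ± 0.38 averaged over both with an adjusted p of 0.0974. Without the white 11-week library W4 the average was 1.86 and passed the threshold (adjusted p = 0.0487). It was not called without any other single library.

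HOXC8, whose ectopic expression in cranial skin accompanies the crest of chickens, had 4.24, 1.25 and 7.85 FPKM in yellow follicles Y1, Y3 and Y4 at 11 weeks, against 0.449, 1.44 and 0.484 FPKM in white follicles. At 7 weeks it had 2.49, 0.959 and 0.977 FPKM in yellow follicles, against 0.0818, 1.16 and 1.45 FPKM in white follicles. The colours overlapped at both ages, and the lowest white value was that of W1 at each age. The average difference was 1.60 (95% interval 0.27 to 2.93, adjusted p = 0.234 from limma), and 0.98 without both W1 libraries (adjusted p = 0.582).

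HOXA9 had 2.86, 6.69 and 7.94 FPKM in yellow follicles Y1, Y3 and Y4 at 11 weeks, against 1.57, 1.45 and 2.88 FPKM in white follicles. At 7 weeks it had 7.09, 8.25 and 8.04 FPKM in yellow follicles, against 3.54, 8.73 and 8.06 FPKM in white follicles. The 2 colours met at 11 weeks, where yellow Y1 lay just below white W4. The difference on the log2 scale was 1.46 ± 0.44 (SE, limma's adjusted p = 0.604) at 11 weeks and 0.30 ± 0.32 (adjusted p = 0.632) at 7 weeks. In HOXD the same direction held with smaller differences for HOXD3, HOXD4 and HOXD8 at 11 weeks. It was not shared by the whole cluster, since HOXD10 was at -0.09. HOXD9 had the same direction at 0.29, and both genes had overlapping colours. HOXD8 had 9.10, 5.66 and 12.4 FPKM in yellow against 3.96, 4.46 and 5.69 FPKM in white follicles at 11 weeks (0.88, adjusted p = 0.618), with 1 yellow library at the level of a white one. HOXD4 had 13.4, 16.2 and 21.0 FPKM in yellow against 9.74, 13.3 and 12.1 FPKM in white follicles (0.51, adjusted p = 0.648), which did not overlap. HOXC11 was listed at 0 in every library of 7 weeks and had 0.136, 0 and 0 FPKM in yellow against 0.111, 0.287 and 0.260 FPKM in white follicles at 11 weeks (-1.21, adjusted p = 0.675).

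The most abundant member, HOXB4, had 57.8, 102.3 and 94.9 FPKM in yellow against 53.4, 81.0 and 96.5 FPKM in white follicles at 11 weeks. At 7 weeks it had 85.5, 69.7 and 102.9 FPKM in yellow against 48.5, 73.0 and 58.9 FPKM in white follicles. Its log2 fold change was 0.14 at 11 weeks (95% interval -0.54 to 0.83) and 0.52 at 7 weeks (0.08 to 0.95, adjusted p = 0.325). HOXB5 was separated at 7 weeks, with 29.2, 24.2 and 31.2 FPKM in yellow against 20.7, 22.4 and 18.2 FPKM in white follicles (0.46, adjusted p = 0.296). HOXB7 ran the other way, with 4.42 ± 0.985 FPKM in yellow against 6.46 ± 0.916 FPKM in white follicles at 7 weeks (SD, n = 3 each; -0.55, adjusted p = 0.325). HOXA5 had 21.4 ± 3.56 FPKM in yellow against 16.6 ± 0.695 FPKM in white follicles (SD, n = 3 each; 0.34, adjusted p = 0.327).

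Counted by overlap, the yellow libraries lay wholly above the white ones for 3 of 28 HOX genes at 11 weeks, HOXC9, HOXD3 and HOXD4, beside 7.99% of all genes, and wholly below for 0, beside 5.72%. At 7 weeks they lay wholly above for 2 of 26, HOXB5 and HOXD8, beside 12.1%, and wholly below for 0, beside 8.04%.

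**Figure D3:**
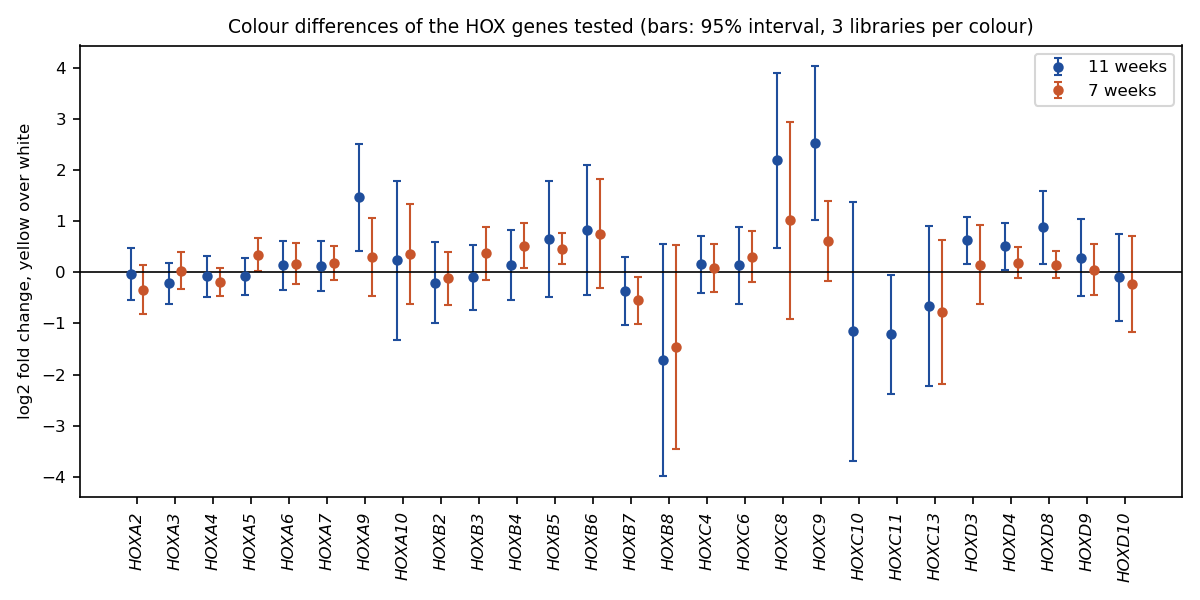
Log2 fold change of yellow over white follicles, on the log2(FPKM + 0.1) scale, for HOX genes tested at 11 weeks and at 7 weeks; bars are 95% intervals from limma with 3 libraries per colour. HOXC9 at 11 weeks lies at 2.53 and HOXB8 lies below 0 at both ages with intervals that include 0.

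The difference of the colour effect between 11 and 7 weeks was tested as an interaction in all 12 libraries. None of the 27 HOX genes was called, nor was any of 14553 genes (percent called 0), and 1 HOX gene had an unadjusted p under 0.05, beside 6.69% of all genes. That gene was HOXC9, with a difference of 1.92 (standard error 0.76, adjusted p = 0.738 from limma). A change of the colour difference with age was thus not detectable for any HOX gene with these libraries.

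More HOX genes were called between the ages than between the colours. Whether the libraries of both ages were prepared and sequenced together is not given in the sources used here. An effect of age therefore cannot be told apart from a difference between these sets of libraries. At 11 weeks against 7 weeks, averaged over both colours, 5 of the 27 HOX genes tested were called, beside 28.0% of all genes tested (4071 of 14553). HOXB3, HOXC10, HOXD3 and HOXD10 were called higher at 11 weeks, 4 of 27 beside 25.0% of all genes, and HOXA9 was called lower, 1 of 27 beside 2.96%. The median log2 fold change was 0.15 over the HOX genes tested and 0.44 over all genes tested, and 17 of the 27 HOX genes lay below the median of all genes. Median-of-ratios scaling, which sets the typical gene level between libraries, moved the median of all genes to 0.03 and that of the HOX genes to -0.31, and changed the split of all calls from 3640 higher and 431 lower to 2276 higher and 1527 lower. After it, HOXC10 and HOXA9 were the called HOX genes. Under quantile normalization 6 were called, HOXC10 and HOXD3 higher and HOXA9, HOXA10, HOXB6 and HOXC9 lower. Without the fold threshold, 10 HOX genes had an adjusted p of at most 0.05.

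Paralogue group 3 was higher at 11 weeks in every library. HOXA3, HOXB3 and HOXD3 were the 3 of 27 HOX genes whose libraries of 11 weeks all lay above those of 7 weeks, beside 37.2% of all genes. The group's FPKM summed to 77.8, 70.4 and 83.1 in yellow and 59.0, 71.5 and 70.8 in white follicles at 11 weeks, against 40.6, 24.9 and 36.5 in yellow and 28.3, 31.2 and 30.7 in white follicles at 7 weeks. As a share of the HOX sum, which no scaling of a library can change, group 3 held 21.4% ± 2.05 at 11 weeks and 11.0% ± 1.12 at 7 weeks (SD, n = 6 each), with ranges of 19.1% to 24.7% and 9.52% to 12.9%. Group 4 held 36.2% ± 2.60 at 11 weeks and 43.1% ± 1.61 at 7 weeks, also without overlap. The FPKM sum of group 4 did overlap between the ages. It averaged 123.3 at 11 weeks (90.87 to 143.1) and 125.5 at 7 weeks (103.6 to 156.8). The lower share of group 4 at 11 weeks was therefore not matched by a clear fall of its sum on the deposited scale. This depended on the scale. Under median-of-ratios scaling its members had log2 differences of -0.95 (HOXA4), -0.31 (HOXB4), -0.73 (HOXC4) and -0.43 (HOXD4). Under quantile normalization HOXB4 was at 0.36, and HOXA4, HOXC4 and HOXD4 were at -0.56, -0.94 and -0.28. The shares of all other groups overlapped between the ages.

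**Figure D4:**
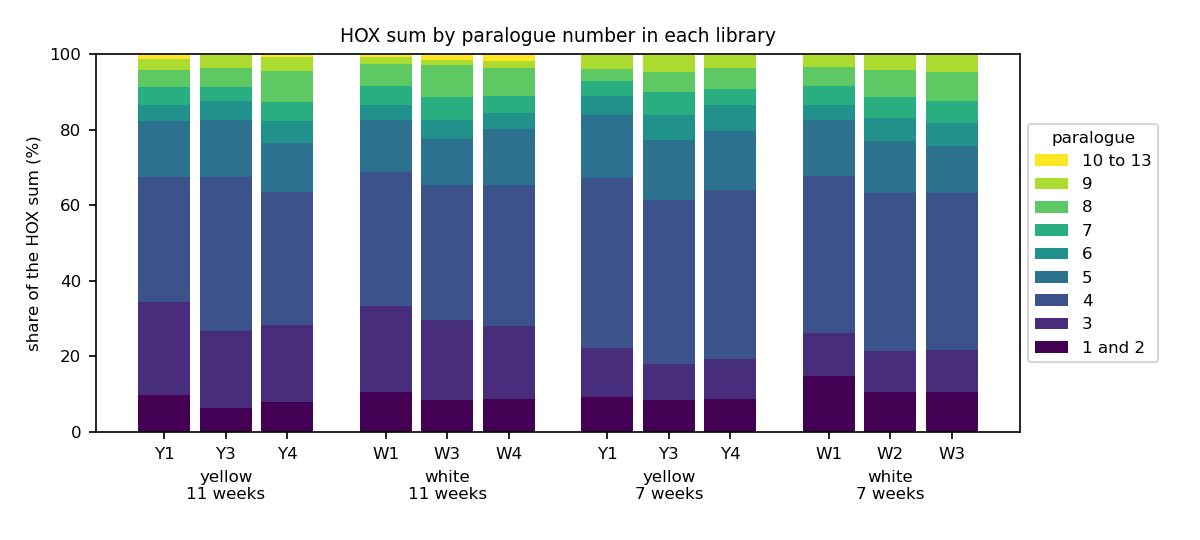
Share of the HOX sum held by paralogue numbers in each of the 12 libraries, in percent, stacked from numbers 1 and 2 at the bottom to numbers 10 to 13 at the top. Group 3 is wider in the libraries of 11 weeks (19.1% to 24.7%) than in those of 7 weeks (9.52% to 12.9%).

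HOXD3 had 44.7, 35.6 and 44.2 FPKM in yellow and 20.7, 33.8 and 27.4 FPKM in white follicles at 11 weeks, against 19.6, 8.49 and 12.95 FPKM in yellow and 8.24, 13.7 and 14.1 FPKM in white follicles at 7 weeks. Its log2 fold change was 1.43 (standard error 0.21, adjusted p = 0.000101 from limma), which is 0.99 above the median of all genes. HOXB3 had 12.5, 20.03 and 19.3 FPKM in yellow and 13.2, 18.8 and 23.9 FPKM in white follicles at 11 weeks, against 7.96, 5.71 and 10.7 FPKM in yellow and 5.58, 6.46 and 6.15 FPKM in white follicles at 7 weeks (1.33, standard error 0.19, adjusted p = 6.93e-05). It stood 0.89 above the median of all genes. Under median-of-ratios scaling both kept their direction and an adjusted p of at most 0.05, at 0.98 and 0.88, but fell short of the fold threshold of 1. HOXA3, whose gene model overlaps those of its neighbours, had 19.7 ± 3.34 FPKM at 11 weeks and 12.1 ± 1.61 FPKM at 7 weeks (SD, n = 6 each; 0.70, adjusted p = 0.000330), and 0.25 after that scaling (adjusted p = 0.0660).

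HOXC10, a gene of the lumbar level, had the largest difference. It had 2.43, 0.180 and 1.13 FPKM in yellow follicles Y1, Y3 and Y4 and 0.461, 3.96 and 4.07 FPKM in white follicles W1, W3 and W4 at 11 weeks. At 7 weeks it had 0.187, 0.106 and 0.0701 FPKM in yellow and 0, 0.104 and 0.115 FPKM in white follicles. The ages overlapped only through yellow Y3 of 11 weeks, and the libraries of 11 weeks were widely spread. The log2 fold change was 2.92 (standard error 0.61, adjusted p = 0.00127 from limma) and 2.62 after median-of-ratios scaling, and it was still called at 1.25 with a pseudocount of 1. Its neighbour HOXC11 was above 0 in 4 libraries, all of 11 weeks, at 0.111 to 0.287 FPKM, and 3 of these 4 had the 3 highest HOXC10 values. HOXD10 had 0.907 ± 0.278 FPKM at 11 weeks and 0.308 ± 0.134 FPKM at 7 weeks (SD, n = 6 each; 1.32, adjusted p = 0.00112), and its call was lost at 0.95 under that scaling, at 0.44 under quantile normalization and with a pseudocount of 1.

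HOXA9 moved the opposite way, with 3.90 ± 2.75 FPKM at 11 weeks and 7.28 ± 1.91 FPKM at 7 weeks (SD, n = 6 each; -1.12, standard error 0.30, adjusted p = 0.00582 from limma). In white follicles it averaged 1.97 ± 0.798 FPKM at 11 weeks and 6.77 ± 2.82 FPKM at 7 weeks (SD, n = 3 each). In yellow follicles the means were 5.83 ± 2.65 and 7.79 ± 0.618 FPKM, and Y1 of 11 weeks was lowest at 2.86 FPKM. The interaction was not called (adjusted p = 0.741 from limma). Averaged over both colours, HOXA9 was lower at 11 weeks under every scaling tried. Its fold change fell short of the threshold without the yellow 11-week library Y1, at -0.89, without the white 7-week library W2, or at -0.90 with a pseudocount of 1. HOXA4 had 23.2 ± 3.57 FPKM at 11 weeks and 32.8 ± 3.72 FPKM at 7 weeks (-0.50, adjusted p = 0.00139), below the fold threshold, and -0.95 after median-of-ratios scaling. HOXA5 and HOXA6 had differences of 0.41 and 0.50 with adjusted p of 0.00585 and 0.00565. Their direction was not stable, since HOXA5 was at -0.05 under median-of-ratios scaling and HOXA6 was at -0.11 under quantile normalization. No HOX gene had all its libraries of 11 weeks below those of 7 weeks, beside 10.7% of all genes.

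**Figure D5:**
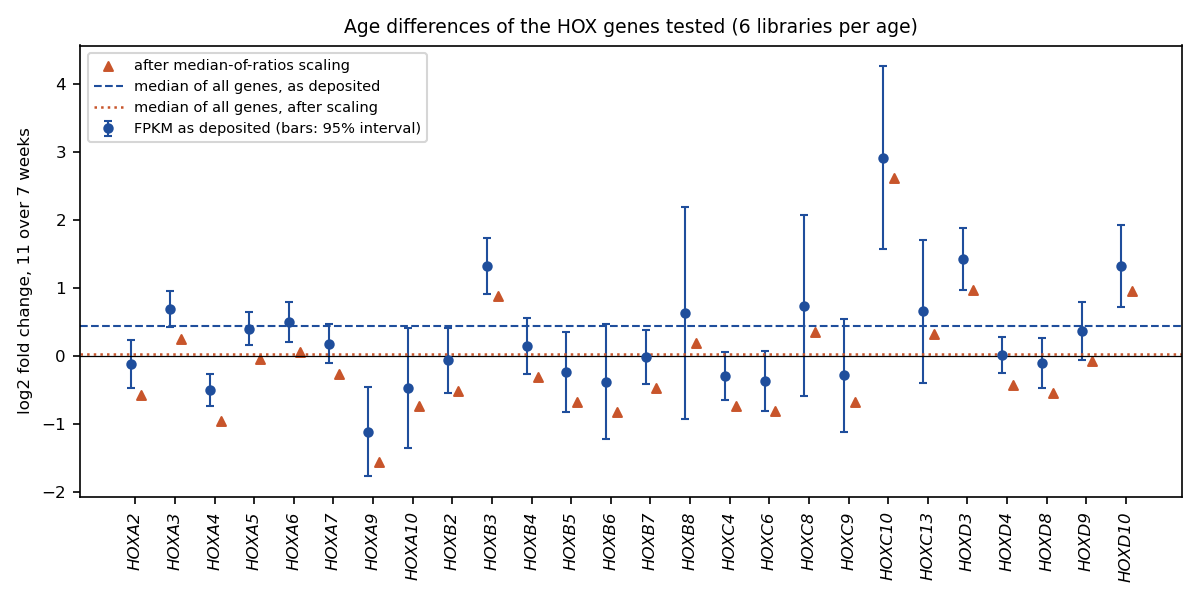
Log2 fold change of 11 over 7 weeks, on the log2(FPKM + 0.1) scale, for HOX genes tested in 6 libraries per age; circles with 95% intervals are FPKM as deposited, triangles are values after median-of-ratios scaling, and the lines are the medians of all genes (0.44 and 0.03). HOXC10, HOXD3, HOXB3 and HOXD10 lie above both lines and HOXA9 lies below them.

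The summed level did not order the ages in a way that holds under scaling. The HOX sum was 339.7 ± 50.8 FPKM at 11 weeks and 290.6 ± 37.1 FPKM at 7 weeks (SD, n = 6 each), and 288.7 ± 42.1 and 336.3 ± 21.0 after median-of-ratios scaling. The keratinocyte markers moved with age as given above, with 3 of 10 called higher and 1 lower at 11 weeks. Of the 11 fibroblast markers 2 were called higher, PDGFRA and PDGFRB, and 0 lower. The median log2 difference of the 11 was 0.67, beside 0.44 over all genes. Yellow Y3 of 11 weeks had 13.3 FPKM of PDGFRA, against 2.985 to 5.234 FPKM in the other libraries of that age. The fibroblast list did not move one way either. COL1A2 averaged 600.4 FPKM at 11 weeks and 302.0 at 7 weeks, whereas TWIST1 averaged 11.6 and 17.7 FPKM. The part of either cell type in the age differences of HOX genes was not tested.

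Rows that lie between the outermost members of a cluster, or within 20 kb outside, numbered 20. Of these 13 were listed at 0 in every library, among them all 7 microRNA rows. The microRNA rows are only 81 to 111 bases long. Whether these libraries captured RNA so short was not tested, so a 0 there does not show absence. Of the 20 rows, 2 had a mean of at least 1 FPKM. One is ENSGALG00000030416, on chromosome 33 from 7640902 to 7643614 between HOXC6 and HOXC4, which the table does not name. It had 3.88, 6.63 and 7.70 FPKM in yellow and 5.26, 8.40 and 7.08 FPKM in white follicles at 11 weeks, against 12.9, 9.70 and 15.0 FPKM in yellow and 14.7, 12.8 and 12.1 FPKM in white follicles at 7 weeks. By limma it was called lower at 11 weeks, at -1.004 ± 0.18 (SE, adjusted p = 0.000436), while HOXC6 and HOXC4 on its sides were at -0.37 and -0.29 without a call. The other is ENSGALG00000026247, a row of 221 bases on chromosome 2 beside HOXA2. It had 3.89, 3.77 and 6.21 FPKM in yellow follicles at 7 weeks and was listed at 0 in the 3 white ones, whereas at 11 weeks it had 4.49, 0 and 3.91 FPKM in yellow and 0, 8.86 and 0 FPKM in white follicles.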

How the data were processed

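RNA of 12 feather follicle libraries had been prepared with an unstranded kit and sequenced in pairs. Per the study's methods, reads were filtered, aligned to GRCg6a (Ensembl release 96) with TopHat2 on Bowtie2 2.2.3 and counted per gene with HTSeq 0.6.0. The authors deposited FPKM, 1 column per library; the program that wrote them is not given in the sources used here. The table holds no counts, so depth and counting error are unknown and precision is the spread between libraries.

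FPKM were taken to log2(FPKM + 0.1) and fitted with limma 3.58.1 in R 4.3.3 (eBayes with trend, Benjamini-Hochberg adjustment over all genes averaging 0.1 FPKM or more). This scale understates the change of low genes. Each age was fitted on its 6 libraries; the averages and the interaction used all 12, with 1 mean per group. The thresholds follow the study, whose DEGseq test needs counts. P-values measure the spread between these libraries. Libraries of both ages were treated as independent. If a shared label is the same bird, the colour averages count some birds more than once. Their standard errors and p-values may then be too small. Same-numbered libraries of the other colour had correlations of deviations between -0.0364 and 0.235 and were not paired. All members entered the counts, sums and fits, and some genes are not reported here by name. The other members were named if they had a mean of at least 1 FPKM, were called, or had an unadjusted p under 0.05. Members and lists were chosen with earlier results of these data known. Other settings were tried: a pseudocount of 1 or 0.01, no filter or a minimum of 1 FPKM, median-of-ratios scaling, quantile normalization, eBayes without trend, a spread shared by all libraries, a replicate block, no fold threshold and leaving out libraries.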

Additional observations from a re-analysis of the deposited data

How the results depend on the processing

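The colour calls were few and moved with the settings, but no HOX gene entered them apart from HOXC9 as described. At 7 weeks 4 of all genes were called, against 2 with a pseudocount of 0.01 or a minimum of 1 FPKM, 7 with median-of-ratios scaling, 10 with quantile normalization, 0 with a shared spread, and 3 to 13 without 1 library. At 11 weeks 0 were called, against 2 without trend or with a shared spread and 0 to 2 without 1 library. In the average 30 were called, against 13 with a pseudocount of 1, 16 with a minimum of 1 FPKM, 60 without the fold threshold, 2 to 88 without 1 library, and, added after seeing the data, 6 without both Y1 and 4 without both W1 libraries. HOX genes called in the average were 0 to 1 without 1 library. With a block that joined yellow and white libraries of one age and number, 18 genes were called at 7 weeks and 1 in the average. With a random block that joined both ages of one label, 19 were called in the average. Neither block changed a HOX call. The interaction gave 0, or 0 to 2 without 1 library. Between ages, 4071 genes and 5 HOX genes were called, against 2219 and 3 with a pseudocount of 1, 10011 and 10 without the fold threshold, and 2 HOX genes with median-of-ratios scaling. HOXA5 reversed to -0.0451 under that scaling, and HOXA6 to -0.11 under quantile normalization. The cause of these changes was not tested.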

Other observations

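Cofactors of HOX proteins were present with them. TALE homeodomain proteins (PBX, MEIS, PKNOX and TGIF) bind DNA together with HOX proteins or compete for their sites. PBX2, MEIS2 and MEIS3 were on the list of 11 but were not analysed here. All 8 analysed here had a mean of at least 1 FPKM, and they summed to 95.4 to 103.4 FPKM at 11 weeks and 57.2 to 92.2 FPKM at 7 weeks. None was called between the colours. Of the 8, 2 were called higher at 11 weeks, beside 25.0% of all genes, and 0 lower, beside 2.96%. Among the called was PKNOX1, with 2.29 ± 1.19 FPKM at 11 weeks and 0.908 ± 0.0994 FPKM at 7 weeks (SD, n = 6 each; log2 fold change 1.15, adjusted p = 0.000907 from limma). Yellow Y3 of 11 weeks had 4.71 FPKM of PKNOX1, against 1.66 to 1.91 FPKM in the other libraries of that age. The list's median was 0.62, beside 0.44 over all genes.

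Of 30 tested genes that set or hold HOX activity (retinoic acid enzymes and receptors, Polycomb and trithorax proteins), 10 were called higher at 11 weeks and 0 lower, with a median of 0.69 beside 0.44 over all genes. They include ALDH1A3, which makes retinoic acid (1.90), and the Polycomb genes CBX6 (3.53) and EZH1 (1.27). The list did not move one way, since abundant members were lower at 11 weeks without a call. RARA had 69.0 ± 5.61 FPKM at 11 weeks and 102.9 ± 10.9 at 7 weeks (SD, n = 6 each). The Polycomb gene PHC2 had 52.3 ± 6.56 and 87.6 ± 5.26 FPKM, and neither gene overlapped between the ages. None of the 30 was called between the colours by limma. Of 23 regional transcription factors outside the HOX clusters, 7 were called higher and 1 lower at 11 weeks (median 0.25). Among them were ALX4 at 3.03 and TBX5, the forelimb gene, at 2.71, with EN1 lower at -1.64. TBX5 averaged 0.971 ± 0.762 FPKM at 11 weeks and 0.0125 ± 0.0178 FPKM at 7 weeks (SD, n = 6 each). EN1 averaged 0.151 ± 0.102 and 0.722 ± 0.490 FPKM. At such low levels the pseudocount weighs on the log2 differences. Of 18 other homeobox genes of the follicle, 2 were called higher and 2 lower (median -0.01), among them MSX1 at -1.01. All these values are on the deposited scale, and 28.0% of all genes were called between the ages, 25.0% higher and 2.96% lower at 11 weeks.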
